A study of Caenorhabditis elegans with 2 samples.

Results

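The locus of F16B12.6 is the stretch of chromosome X that holds the gene whose own protein was immunoprecipitated. It was taken as the gene body (ce11, chrX:14102316-14107913, plus strand) with 20 kb on each side, and every list entry whose summit fell in this 45.6 kb was a member. The thresholded list had 2 of its 2183 peaks there, and the pooled relaxed list had 13 of 30000 entries, of which those 2 are thresholded, against 7.28% of all pooled entries. The relaxed list of replicate 1 had 27 of 30000 entries in the window and that of replicate 2 had 16 of 30000. All samples were whole, mixed-sex first-stage (L1) larvae of Caenorhabditis elegans strain OP114, which carries the mutant allele unc-119(tm4063) on chromosome III and the transgene wgIs114. Their labels name eGFP-F16B12.6, the green fluorescent protein fusion, as the target of chromatin immunoprecipitation and sequencing (ChIP-seq). The 2 biological replicates form 1 group, so no condition is compared, and each replicate's value is given without a standard deviation. A relaxed list ranks peaks and background together, while the thresholded list keeps peaks of the pooled replicates that passed the authors' reproducibility filter. The depth behind an entry is unknown, since no read numbers were at hand. The lists hold no expression values, so the stage could not be checked against marker genes.

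F16B12.6 (WBGene00008882) has 1 annotated transcript with 16 exons and encodes 1392 amino acids, and RefSeq names its product a DUF7747 domain-containing protein. A factor that binds its own gene closes a loop between protein and gene known as autoregulation, and binding can take place at the promoter or at elements inside introns. ChIP-seq records where the protein was recovered, and does not tell whether the gene was switched on or off there. In a strain with a tagged insertion, DNA of the inserted copy and of the native gene has the same sequence, so signal from either cannot be told apart by position. How much flanking DNA the insertion holds, and in how many copies, was not tested. In whole larvae, binding in fewer cells and weaker binding per cell cannot be told apart either.

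Both thresholded peaks of the window lay on F16B12.6 itself, one just upstream of its annotated 5′ end and one in its longest intron. They are printed 5′ to 3′ on the plus strand of ce11 (RefSeq sequence of WBcel235), together with the centre of the strongest entry below the threshold, because these 3 places carry the strongest signal of the locus. Capitals in the intron peak mark 8-base words chosen for their excess at the other thresholded summits, described further on. The promoter peak held none. Capitals in the last sequence mark an arginine tRNA gene.
promoter peak, chrX:14102121-14102259: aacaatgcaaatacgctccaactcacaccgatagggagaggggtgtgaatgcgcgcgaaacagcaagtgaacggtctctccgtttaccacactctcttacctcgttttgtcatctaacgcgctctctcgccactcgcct
intron peak, chrX:14104634-14104811: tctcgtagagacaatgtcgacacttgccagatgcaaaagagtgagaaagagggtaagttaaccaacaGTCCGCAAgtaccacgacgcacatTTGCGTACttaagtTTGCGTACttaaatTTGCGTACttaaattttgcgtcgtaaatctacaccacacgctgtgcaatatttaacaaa
tRNA entry centre, chrX:14115682-14115802: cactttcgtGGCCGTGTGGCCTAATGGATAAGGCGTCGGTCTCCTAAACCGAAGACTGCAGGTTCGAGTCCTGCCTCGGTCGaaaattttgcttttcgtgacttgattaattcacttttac

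The promoter peak was 139 bp long and ended 57 bp before the annotated 5′ end. Its summit lay at -120 bp from that end in the pooled list, with a signal value of 159.7 (the caller's own score for an entry, whose scaling is not stated) and rank 483, where rank 1 is the strongest entry of a list. In replicate 1 the matching entry had a signal of 88.51 and rank 498, with its summit at -139 bp. In replicate 2 it had a signal of 76.3 and rank 440, with its summit at -118 bp. Both replicates thus gave this peak a similar rank, and their summits lay at -19 and 2 bp from the pooled one. Thresholded peaks had all passed the authors' reproducibility filter, so likeness between the replicates was partly selected for. Guanine and cytosine made up 52.5% of the peak, against a median of 46.5% (quartiles 42.6% and 52.5%) in the 101 bp around the other thresholded summits and 35.2% of chromosome X.

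The intron peak was 178 bp long, with 52 bp in coding exon 8 and 126 bp in intron 8 (chrX:14104686-14104944). Intron 8 is 259 bp long, whereas the other introns run from 47 to 169 bp. The pooled summit lay 2400 bp downstream of the 5′ end and 30 bp inside the intron, with a signal of 196.9 and rank 432. In replicate 1 the entry had a signal of 124.6 and rank 424, with its summit at the same base. In replicate 2 it had a signal of 67.6 and rank 465, with its summit 23 bp further downstream. The ranks were again close in both replicates. The peak's guanine and cytosine content was 41%.

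**Figure D1:**
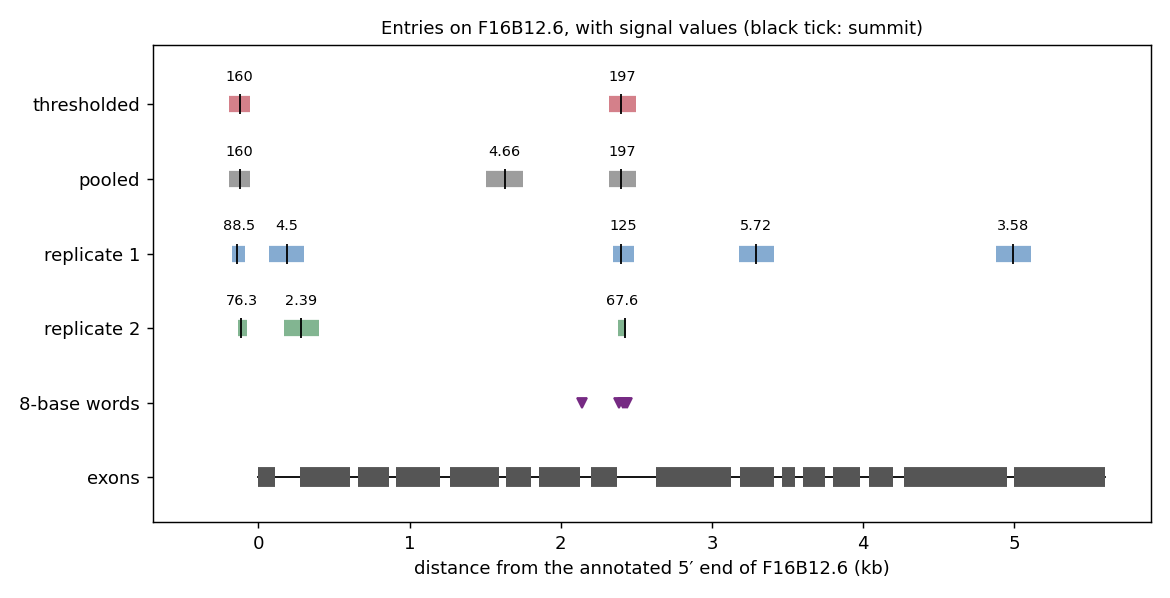
Entries with a summit on F16B12.6 or just upstream of it, drawn to scale against distance from the annotated 5′ end in kb; bars span each entry, black ticks are summits, numbers are signal values and purple triangles are copies of the 8-base words. In every list the entries near -0.12 and 2.40 kb carry signals of 67.6 or more, and every other entry on the gene is at 5.718 or less.

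The order of the pair differed between the replicates. The intron peak was the stronger in replicate 1 (124.6 against 88.51) and in the pooled list (196.9 against 159.7), and the promoter peak was the stronger in replicate 2 (76.3 against 67.6). With 1 value per replicate this difference has no replicate check and was not tested. The replicate ranks of the promoter peak differed by 58 places and those of the intron peak by 41. Among the 301 thresholded peaks with pooled ranks of 300 to 600 and a partner in both replicates, the rank difference had a median of 37 and quartiles of 19 and 62, so both values lay between the median and the upper quartile for peaks of similar strength. Over all 2159 thresholded peaks with both partners, the median difference was 185 and the quartiles were 45 and 615.5.

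**Figure D2:**
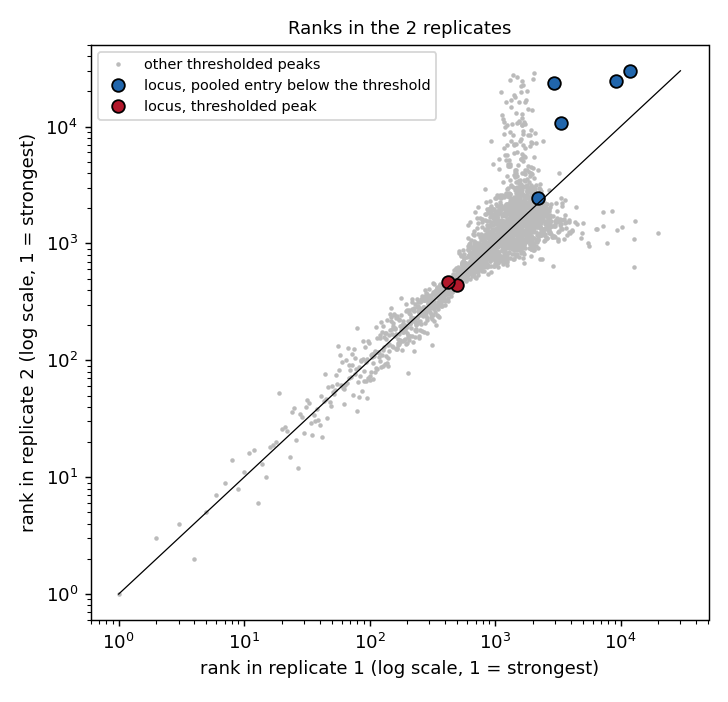
Rank in replicate 1 (x axis) against rank in replicate 2 (y axis), both on log scales with 1 the strongest; grey points are thresholded peaks outside the locus, red points its 2 thresholded peaks, blue points its 5 weaker pooled entries with a partner in both replicates, and the line marks equal ranks. The red points sit near the line at ranks of 424 to 498, the tRNA entry sits near it at 2184 and 2472, and the other blue points lie above it, with weaker ranks in replicate 2. A partner overlaps the pooled entry by at least 1 bp, and its summit can lie elsewhere, as far as -218 bp away in replicate 2.

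Both peaks were narrower than most, which was not particular to this locus. The commonest width was 250 bp in the thresholded list and 230 bp in the replicate lists. Of thresholded peaks, 588 (26.9%) were narrower than 250 bp. The whole pooled list had the same number, 588 (1.96%), so in it such widths were found only among thresholded peaks. Of all thresholded peaks, 128 (5.86%) were as narrow as the promoter peak or narrower, and 204 (9.34%) were as narrow as the intron peak or narrower. In the replicates the promoter peak measured 89 bp and 61 bp and the intron peak 143 bp and 58 bp.

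Against the other thresholded peaks, the 2 ranked within the strongest 22.1% of the list and were not among its extremes. By pooled signal the intron peak was rank 49 and the promoter peak rank 55 of the 211 thresholded peaks on chromosome X. Among the 147 thresholded peaks in introns outside all promoter windows, the intron peak was rank 8, and among the 15 of these on chromosome X it was rank 3. The promoter peak was rank 450 of the 1761 thresholded peaks in promoter windows of protein-coding genes, which run here from 1000 bp upstream to 200 bp downstream of any 5′ end annotated for such a gene, and rank 46 of the 153 on chromosome X.

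A thresholded summit in both the promoter window and an intron was uncommon. Of 19973 protein-coding genes, 2464 (12.3%) held a thresholded summit within the promoter window, 137 (0.686%) had one in an intron outside all promoter windows, and 35 (0.175%) had both. F16B12.6 was 1 of these 35, and 1 of 9 whose peaks both ranked 1000 or better. The only other genes on chromosome X with both were ppk-3 (a phosphatidylinositol phosphate kinase gene), with pooled ranks of 1000 at the promoter and 592 in the intron, and F28C10.3, with ranks of 1259 and 985. Both peaks of F16B12.6 were stronger than the corresponding peaks of those genes. This count was made after the locus had been seen to hold such a pair, so it describes how common the arrangement was and tests nothing.

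The intron peak held repeated copies of a sequence, GTACGCAA, that was present at 7.93% of the other thresholded summits. The words were the 8 sequences of 8 bases, read on both strands, whose share at the 2181 thresholded summits outside the locus (101 bp centred on the summit) most exceeded their share in the same length 300 bp to one side. They overlap one another and were GCAAACAC (15.6% of those summits), AGACGCAG (10.6%), GAGACGCA (10%), CGCAAACA (9.9%), CAAACACC (9.9%), GACGCAGA (9.4%), GTACGCAA (7.93%) and GTCCGCAA (7.89%). At least 1 word was present at 33.7% of the 2181 summits, at 1.88% of the places 300 bp to one side, and at 3.45% of the 27806 weaker pooled entries outside the locus. The words were chosen by their excess at these same summits over these same places, so that contrast was fixed by the choice. The same choice raises the share at the summits when it is set beside the weaker entries. The intron peak held 4 copies, namely GTCCGCAA once on the plus strand (chrX:14104701-14104708) and GTACGCAA 3 times on the minus strand, where the plus strand reads TTGCGTAC. The 3 copies began at 14104725, 14104739 and 14104753 and so were spaced 14 bp apart. The pooled summit at 14104716 fell between the GTCCGCAA and the first GTACGCAA, and the summit of replicate 2 fell on the first base of the middle copy. The promoter peak held 0 copies of the 8 words, as did 66% of the 1760 other thresholded summits in promoter windows, which says only that these letters are not in this window. Of the 146 other thresholded summits in introns, 27.4% had at least 1 word and 8.22% had GTACGCAA.

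Clusters of GTACGCAA were rare. Of the 2181 other thresholded summits, 173 had the word, 19 (0.871%) had 2 or more copies within the 101 bp and 0 had 3 or more. The 6 nuclear chromosomes hold 2544 copies of GTACGCAA, 4 of them in the window around F16B12.6, and 1 place in them had 3 or more copies within 101 bp, namely intron 8 of F16B12.6. Within 201 bp there were 5 such places, that intron among them, and 2 overlapped a thresholded peak. These were the intron peak itself and a peak on chromosome I (pooled rank 536). The remaining places overlapped no entry of any list. Among the other 7 words, AGACGCAG had 4 places with 3 or more copies within 101 bp, GAGACGCA had 3 and the rest had 0, none of them in F16B12.6. The words, the copy number and this word were chosen after the sequence of the intron peak had been read, so the counts are a description. Whether the protein contacts any of these copies was not tested.

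The strongest entry of the locus below the threshold lay 13.43 kb downstream of the 5′ end of F16B12.6, on an arginine tRNA gene, F28H6.t1 (chrX:14115691-14115763, plus strand), whose transcript carries arginine to the ribosome. Its pooled signal was 20.2 at rank 2306, just below the weakest thresholded peak of the whole list (21.69 at rank 2183). Its signal was 13.36 (rank 2184) in replicate 1 and 8.043 (rank 2472) in replicate 2, a rank difference of 288. The replicate summits lay at -20 and -10 bp from the pooled one, and all 3 fell inside the tRNA gene. The non-coding RNA F28H6.9 is annotated on the opposite strand of the same bases, and the summit also fell in the promoter window of F28H6.7, a gene for a CYSTM domain protein, at -369 bp from its 5′ end. In the reference sequence this entry is less unique than the peaks on F16B12.6. Of its 221 stretches of 30 bases, 48 (21.7%) occur more than once in the 6 nuclear chromosomes. The numbers were 0 of 110 in the promoter peak and 0 of 149 in the intron peak. These counts leave out the transgene, so they do not separate an inserted copy of F16B12.6 from the native gene.

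All other entries of the locus were far weaker. Apart from the promoter and intron peaks, the 11 pooled entries ran from 4.536 to 20.2 with a median of 7.94, where the whole pooled list had a median of 6.238 and a highest value of 1543. The 25 other entries of replicate 1 ran from 3.4 to 13.36 (median 4.704; whole list 4.392), and the 14 of replicate 2 from 2.153 to 8.043 (median 2.617; whole list 3.303). The signal value of the weaker strong peak was 7.9 times that of the next entry of the locus in the pooled list. The ratio was 6.63 in replicate 1 and 8.4 in replicate 2. With the scaling not stated, these are ratios of scores within a list and not of amounts bound. Apart from the tRNA entry, weak entries paired by overlap of at least 1 bp differed widely in rank between replicates. Some of these pairs had summits far apart and may not mark the same place. Upstream of F16B12.4, a coiled-coil protein gene, the replicate 1 entry was rank 2966 (signal 9.704), with its summit at -1 bp from the pooled one. The replicate 2 entry paired there was rank 23664 (2.551), a difference of 20698 places. Its summit lay at -218 bp from the pooled one, in a coding exon of F16B12.4. Upstream of F28H6.4, a gene for an SPK domain protein, the ranks were 3354 in replicate 1, 10750 in replicate 2 and 4420 in the pooled list. The replicate summits there lay at 28 and -168 bp from the pooled one.

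**Figure D3:**
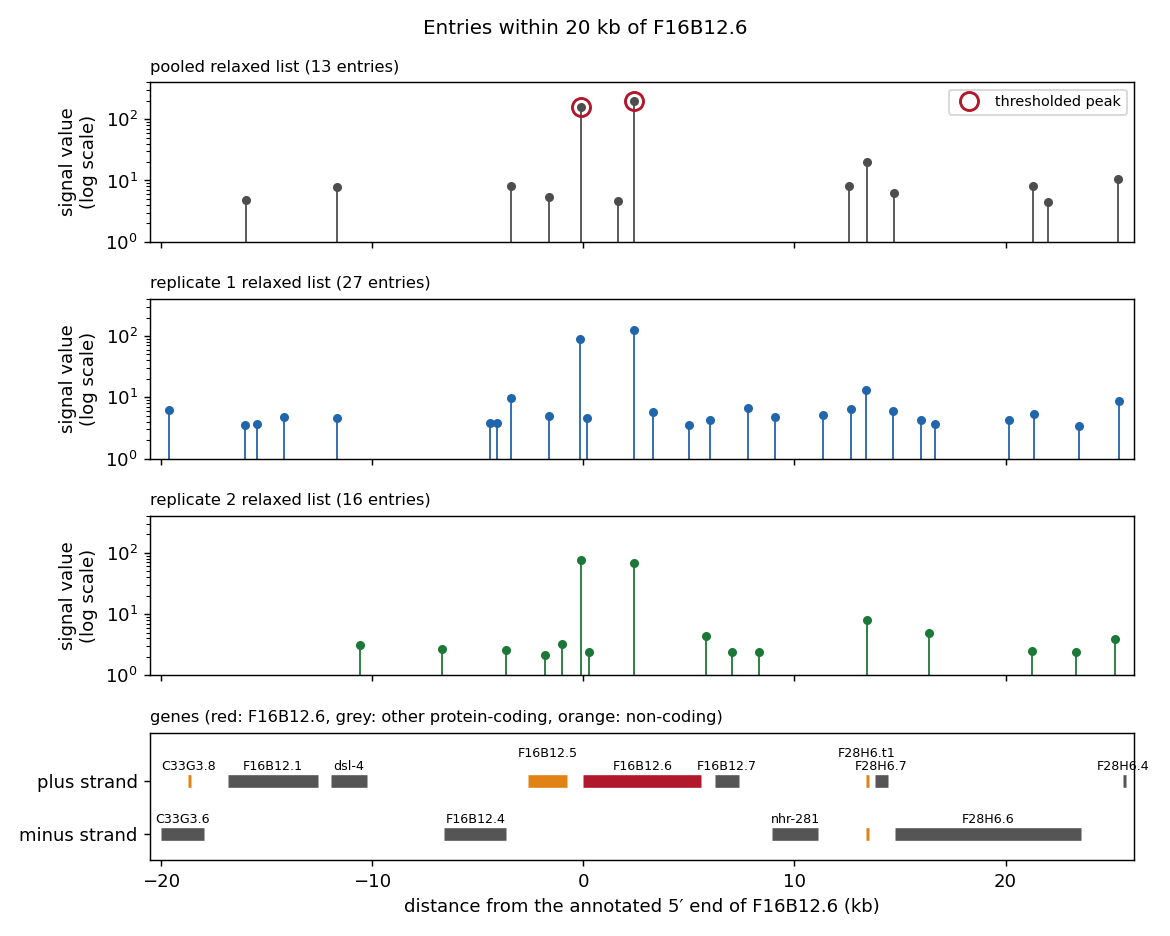
Signal value (log scale) of every entry in the window against distance of its summit from the annotated 5′ end of F16B12.6 in kb, for the pooled list and both replicates, above the annotated genes of each strand; red rings mark thresholded peaks. The pair on F16B12.6 reaches 67.6 to 196.9, and every other entry is at 20.2 or less.

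By position, the 13 pooled entries comprised 4 in promoter windows, 6 in introns, 1 in the pseudogene F16B12.5 and 2 between genes, and 0 in coding exons or untranslated exon sequence. Replicate 1 had 8 in promoter windows, 10 in introns, 5 in coding exons, 1 in the pseudogene and 3 between genes. Replicate 2 had 6, 3, 4, 1 and 2 in the same order. On F16B12.6, the entries beside the pair were a pooled one in intron 5 (signal 4.658, with no partner in either replicate), replicate 1 entries in intron 1 (4.504), exon 10 (5.718) and intron 15 (3.579), and a replicate 2 entry in exon 2 (2.386). A further replicate 2 entry (3.28) lay in the pseudogene F16B12.5 at -990 bp from the 5′ end of F16B12.6, inside its promoter window.

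The 9 neighbouring protein-coding genes had 0 thresholded summits in their promoter windows, where 12.3% of all such genes had one. That share is not matched to chromosome X, where thresholded peaks were sparser. Windows of 20 kb on each side of a gene held a median of 0 there, against 1 over all chromosomes. In the pooled list 3 of the 9 had an entry there (44.6% of all genes), in replicate 1 there were 6 (44.8%) and in replicate 2 there were 4 (43.9%). The 3 with a pooled entry were F16B12.4 (8.016, rank 8057), F28H6.7 (the tRNA entry) and F28H6.4 (10.67, rank 4420). Replicate 1 added nhr-281, a nuclear hormone receptor family gene (5.21, rank 10055), F28H6.6, which encodes a homeobox domain protein (3.4, rank 25243), and F16B12.7, which encodes a protein kinase domain protein (4.291, rank 15806). Replicate 2 added F16B12.7 (4.334, rank 8239). C33G3.6 (a serine/threonine kinase gene), F16B12.1 (a CUB domain protein gene) and dsl-4, which encodes a Delta-like protein of the Notch ligand family, had no promoter entry in any list. With 9 genes that share one stretch of chromosome, the counts describe this neighbourhood only.

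Replicate 1 had many weak entries across the window. Its 27 entries were more than the number in the same window of 98.7% of the other 19972 protein-coding genes, whose median was 12, and of 99.7% of the other 2730 on chromosome X. The 16 entries of replicate 2 were more than in 71.5% of the other genes (median 13), and the 13 pooled entries were more than in 51.6% (median 12). The excess in replicate 1 was not matched in replicate 2 or in the pooled list. In bins of 10 kb from 20 kb upstream to 30 kb downstream of the 5′ end, replicate 1 had 5, 5, 7, 6 and 5 entries, against a median of 3 and an upper quartile of 4 over bins of chromosome X. The bins on either side had 1 and 2 entries. Such counts were not limited to the locus: within 100 kb, replicate 1 also had 6, 5 and 8 entries in the bins from -100 to -70 kb, 7 from 40 to 50 kb and 5 from 60 to 70 kb, and the 8 is above any bin of the locus. Replicate 2 had 1, 5, 5, 2 and 3 entries in the same bins and the pooled list 2, 3, 2, 3 and 3. For thresholded peaks, the 2 in the window were more than in 71.6% of the other genes and in 85.2% of the other genes on chromosome X. More than 2 were found at 12.4% and 3.7% of them. Of all protein-coding genes, 56.5% had at least 1 thresholded summit in such a window. Windows of neighbouring genes overlap, so these shares are a description and no test was made.

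**Figure D4:**
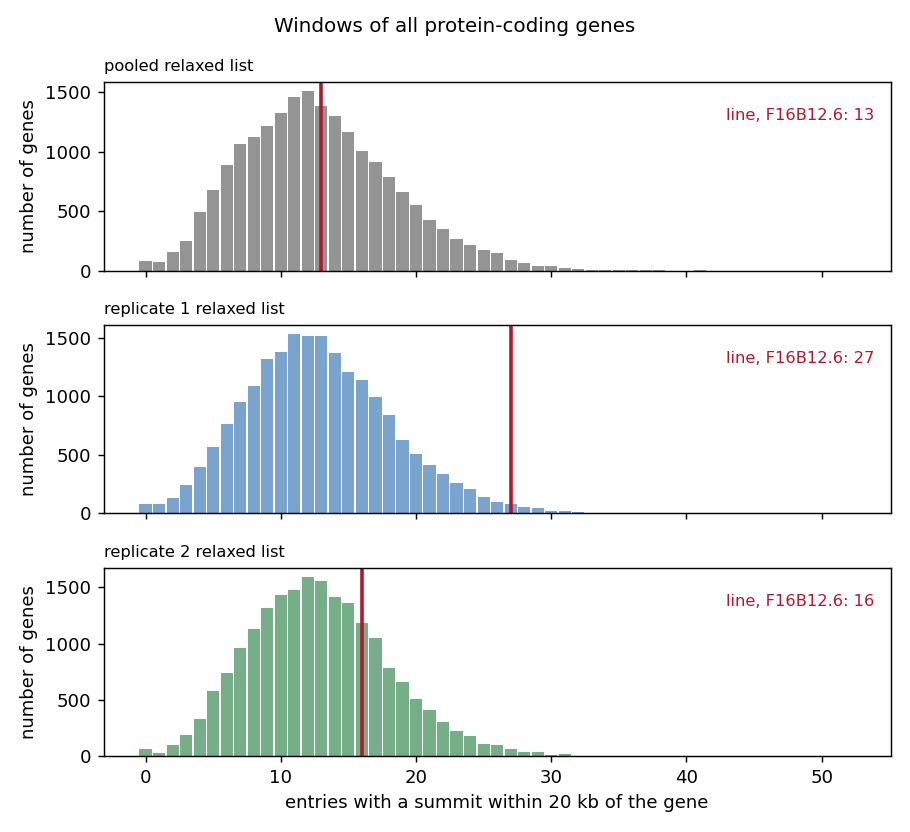
Number of protein-coding genes (y axis) by the number of entries with a summit within 20 kb of the gene (x axis), for the pooled list and both replicates; the red line is F16B12.6. Its 27 entries in replicate 1 lie in the upper tail, while 16 in replicate 2 and 13 in the pooled list lie in the body of each distribution.

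**Figure D5:**
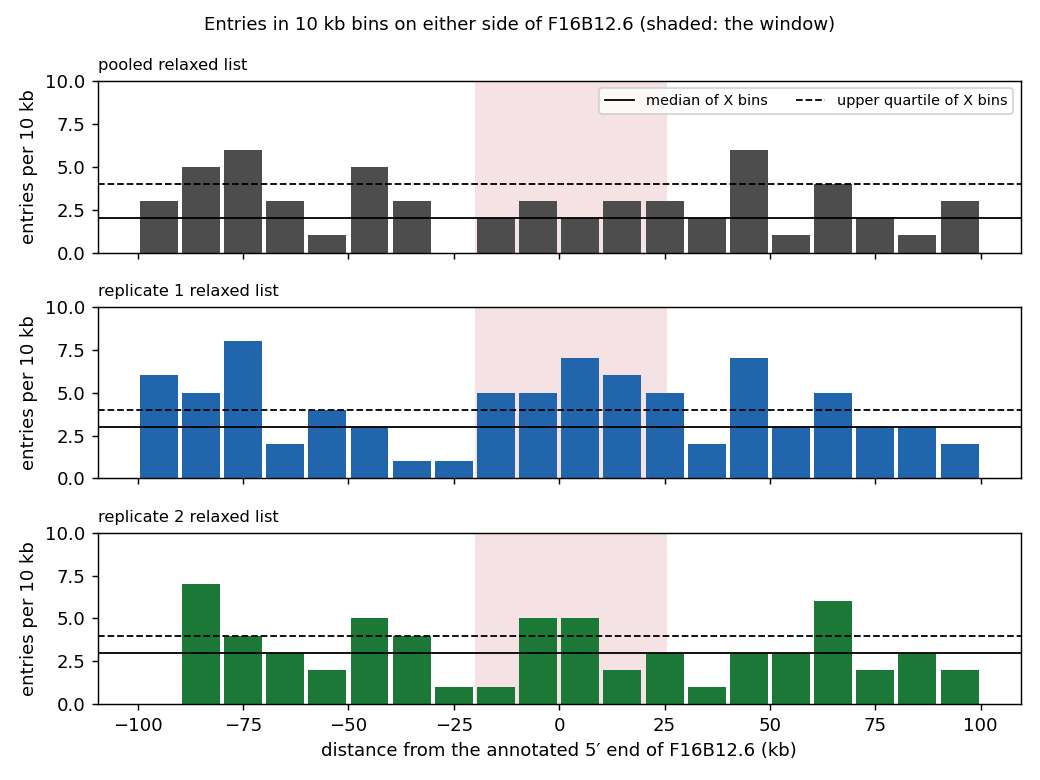
Entries in each 10 kb bin (y axis) by distance from the annotated 5′ end of F16B12.6 in kb (x axis), with the median and upper quartile over bins of chromosome X as lines and the window shaded. In replicate 1 the 5 bins from -20 to 30 kb hold 5 to 7 entries each, above the upper quartile of 4, as do 5 bins outside the window, the highest with 8 entries at -80 to -70 kb. In replicate 2 the bins from -20 to 30 kb hold 1 to 5.

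Of the 27 entries of replicate 1 in the window, 10 (37%) overlapped an entry of replicate 2 by at least 1 bp, and 10 of the 16 entries of replicate 2 (62.5%) overlapped one of replicate 1. Over all entries the share was 27.1% of each list. With summits within 100 bp the number fell to 4, or 14.8% and 25% against 17.8% of all entries, and with overlap of at least 50% of both entries to 3, or 11.1% and 18.8% against 18.9%. So 7 of the 10 overlapped by less than 50% of at least 1 entry of the pair, and the strong intron peak was 1 of these 7, since its entry was 143 bp long in replicate 1 and 58 bp in replicate 2. Of the 13 pooled entries, 11 (84.6%) overlapped an entry of replicate 1 (61% of all pooled entries did) and 7 (53.8%) one of replicate 2 (50.6% did). For replicate 1 the number was 11 under both stricter definitions, whereas for replicate 2 it was 4 with summits within 100 bp (30.8%, against 42.5% of all pooled entries) and 2 with 50% reciprocal overlap (15.4%, against 43.6%). Both strong peaks of F16B12.6 missed that last definition, since their replicate 2 entries, 61 and 58 bp long, covered less than 50% of the pooled peaks of 139 and 178 bp.

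The window of unc-119, the gene mutated in the strain and required for normal worm movement, served as a comparison. It held 0 thresholded peaks and 24 pooled entries, with 21 in replicate 1 and 23 in replicate 2, and its strongest pooled entry had a signal of 20.6 at rank 2275. The pair of strong peaks was present at F16B12.6 and not at unc-119, and unc-119 had more pooled entries. A window with 0 thresholded peaks was common, found at 8688 of 19973 protein-coding genes, so its absence at 1 gene says little. The genes outside the window whose strongest promoter entry was most like that of F16B12.6 in both replicate ranks (498 and 440) were rnr-2, which encodes the small chain of ribonucleotide reductase, with ranks of 492 and 433, and C01A2.1 and W05H12.4, which share 1 entry with ranks of 480 and 441. The pooled signals were 177.2 at rnr-2 and 183.9 at the shared entry, against 159.7 at F16B12.6. The likeness is the sum of absolute differences in log10 rank over the 2 replicates.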

How the data were processed

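ChIP-seq of eGFP-F16B12.6 in 2 biological replicates was analysed from 4 lists on ce11. Per the notes the authors deposited, a replicate's relaxed list was made from its alignments and a control, the pooled list from both replicates, and the thresholded list from the pooled and replicate lists. Not given in the sources used here are the aligner, the peak caller and the reproducibility threshold, and read depth is unknown, so no interval that needs it is given. The lists have 10 columns and no header. Column 7 is a signal value that the authors' caller gave each entry, with scaling not stated, and it was used only within a list. Column 9 holds a −log10 q value by its place in the layout of the deposited files, and was 3.71 in both thresholded peaks of the locus, so it was not used for ranking. The deposited column 8 holds -1 throughout, and column 10 holds the summit's offset.

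Summits were placed on the Ensembl release 115 annotation of WBcel235, which shares the coordinates of ce11, and the sequence was read from RefSeq. Coordinates are 1-based. A summit in a promoter window was classed there first, and in a gene feature otherwise. Entries of different lists were paired when they overlapped by at least 1 bp, taking the strongest. Counts in the window were set beside those of all protein-coding genes, with no p-value, since neighbouring genes share windows. The text names F16B12.6, the annotated genes within 20 kb, unc-119, and the 3 genes with promoter entries most like it in replicate rank; ppk-3 and F28C10.3 were added after their values were seen. The locus and lists were chosen with earlier results of these data known, and the words and the rank band of 300 to 600 after values or sequences had been seen. An earlier search used other word lengths, the strongest summits alone and ACGCAG, which is in neither peak of F16B12.6. Counting, pairing, ranking and the word counts were tested on simulated data. Lists on ce10 were not analysed here. Computation used Python 3.11.15 and NumPy 2.4.6, and plots matplotlib 3.10.9.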

Additional observations from a re-analysis of the deposited data

How the results depend on the processing

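Of 28 alternatives, 17 left the value close (counts within 1.5 times, ranks and shares within the SD of the replicates) and 11 moved it further. That SD was taken from the same 2 replicate values that stand for 1 replicate left out. For ranks and shares it is therefore a loose yardstick, and being close says little. The best rank in the locus was 432 in the pooled list and 424 to 440 with 1 replicate left out, but the entry changed: it was the intron peak in the pooled list and without replicate 2, and the promoter peak without replicate 1, where the intron peak had rank 465. There were 2 thresholded peaks with 10 kb on each side, with the stronger part of the thresholded list, and with either replicate's 2183 strongest entries in place of that list, and 4 with 40 kb. In replicate 1 the tRNA entry, at rank 2184, fell just outside those 2183. The 13 pooled entries became 8 with 10 kb, 23 with 40 kb, 8 in the stronger 15000 entries, and 16 to 27 in the lists with 1 replicate left out. The share of genes with fewer entries, 51.6%, ran from 71.5% to 98.7% with 1 replicate left out, 98.7% being without replicate 2. The 10 entries shared by the replicates became 4 with summits within 100 bp and 3 with 50% reciprocal overlap. The 3 neighbours with a pooled promoter entry became 6 with 2000 bp upstream, and 4 to 6 with 1 replicate left out. Chosen after seeing the data, windows of 201 bp also gave 0 other thresholded summits with 3 or more copies of GTACGCAA, and promoter windows of 500 and 2000 bp gave 34 and 24 genes with both kinds of peak, F16B12.6 among them. The causes were not tested. No paired analysis was possible because there is 1 group. Ranking by column 8 was not run, since it holds -1 throughout, and the ce10 lists were not used. Signal values have no stated scaling, depth is unknown, and 2 replicates allow no test of the order of the pair.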
